A study of Homo sapiens with 6 samples.

Results

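Solute carriers are membrane proteins that move sugars, amino acids, ions, metals, vitamins and mitochondrial metabolites across membranes, and the genes of this superfamily carry the prefix SLC and a family number. The members described here are all genes whose annotated symbol begins with SLC followed by a digit. On the array, 550 probes for 377 such genes carried values. A probe was kept where its detection p, a comparison with the negative control beads of the same array, stayed below 0.01 on 3 or more of the 6 arrays. This left 212 probes for 169 genes, of 8952 named genes kept in all. The other 208 genes of the superfamily did not pass, and for 194 of them no probe was detected on any array. A probe below this limit is not well above background, which does not show that its gene is silent.

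The samples were RWPE-1 cells, an immortalised, non-tumorigenic line of human prostate epithelium, collected 72 h after transfection with 100 nM oligomer. LNA-205 is a locked nucleic acid, a modified antisense oligomer that binds its target tightly, directed against miR-205. The control cells received LNA-Scr, whose sequence is scrambled. There were 3 samples in each group, lettered A to C for LNA-Scr and D to F for LNA-205, and each was read on 1 single-colour Illumina bead array. All 6 samples are of 1 cell line and all received an oligomer, and untransfected cells were not analysed here. Transfections were in triplicate per the study's design text, so p-values measure the spread between transfections of this line, and nothing says whether these were done on separate days.

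Setting the LNA-205 arrays against the LNA-Scr arrays addresses which transcripts differ when miR-205 is silenced. The oligomer's target is shown because the comparison rests on it. The mature sequence is from RefSeq (GRCh38.p14, chr1:209432166-209432187, + strand), and capitals mark the seed, bases 2 to 8, the stretch by which a microRNA mainly recognises its target transcripts.
hsa-miR-205-5p: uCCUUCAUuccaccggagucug
The arrays do not read the mature microRNA, so its silencing was not checked by these values.

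Some transporter families have known roles in this tissue. Prostate epithelium is known for its zinc content, and zinc enters the cytosol through SLC39 proteins and leaves it through SLC30 proteins. Growing epithelial cells take up glucose through SLC2 proteins and large neutral amino acids through SLC7A5, which works as a pair with the heavy subunit SLC3A2. SLC25 proteins sit in the inner mitochondrial membrane and exchange nucleotides, phosphate, citrate and amino acids with the cytosol.

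Between 12585 and 14195 probes were detected on an array. Markers of basal prostate epithelium (5 of 5 genes with a probe, among them KRT5 and KRT14) and of epithelium in general (5 of 5, among them CDH1 and EPCAM) were measured. Of the markers with a probe, 0 of 5 for luminal prostate, 0 of 6 for fibroblasts, 0 of 4 for endothelium, 0 of 4 for immune cells and 0 of 3 for neuroendocrine cells passed the detection rule. The array mean of the basal markers ran from 12.50 to 12.61 in LNA-Scr and from 12.43 to 12.61 in LNA-205, on the log2 scale. In bulk samples, fewer cells of a type and less RNA per cell cannot be told apart.

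None of the 169 solute carrier genes passed the test. With limma's test across 10803 features and Benjamini-Hochberg adjustment, the smallest adjusted p of a member was 0.550, and 0.00926% of all features passed, which was 1 feature, MCCC2, a mitochondrial enzyme of leucine breakdown. At an unadjusted limma p under 0.05, 4 members had higher values in LNA-205 (2.37%, against 3.19% of all features) and 5 had lower values (2.96%, against 3.07%). The arrays of the groups did not overlap for 12 members on the higher side (7.10%, against 6.38% of all features) and for 10 on the lower side (5.92%, against 5.78%). These shares were close to those of the whole array. Values here are log2 intensities after background correction and quantile normalization, for each gene from its brightest probe, and differences are LNA-205 minus LNA-Scr. Levels of different genes are not compared, because probes differ in brightness for the same amount of RNA.

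The intervals describe 1 probe per gene and are not adjusted for the number of genes. They do not bound each gene's difference, and another probe can lie outside. For SLC25A43 the 95% interval was −0.31 to 0.28, while its other probe gave −0.59 (−1.13 to −0.05, with every probe as its own feature). The 2 intervals overlap. That other probe averaged 8.12 in LNA-Scr and 7.54 in LNA-205 and was detected on 2 of 3 LNA-205 arrays. The 95% interval of the log2 difference lay within 1 of 0 in either direction, which is less than 2-fold, for 165 of the 169 members (97.6%, against 97.5% of all features). It lay within 0.5 for 117 (69.2%, against 68.9%). The 4 members with wider reach were SLC43A2, SLC26A2, SLC46A2 and SLC25A29. The median log2 difference of the members was −0.03, with 72 higher and 97 lower (57.4% lower), while over all features it was −0.00075, with 50.2% lower. In an alternative to quantile normalization, arrays were scaled to a common median over all 48799 probes with values. Most of these probes failed the detection rule. The median of all features, which passed it, was then itself −0.16, and 145 of the 169 members were lower. Counted against that shift, 98 members lay below it.

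**Figure D1:**
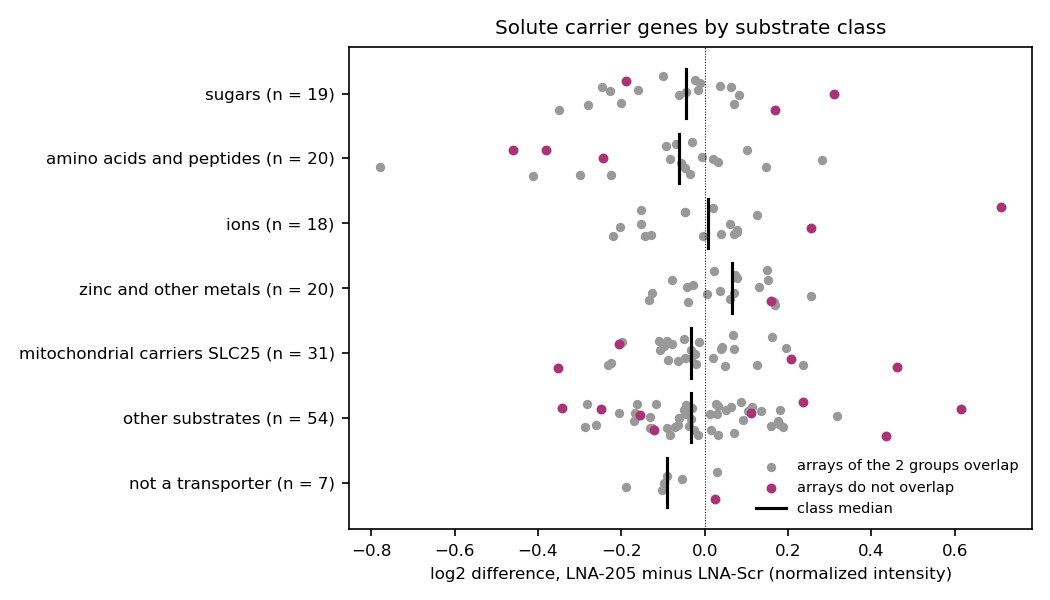
Log2 difference between LNA-205 and LNA-Scr (x axis, normalized intensity) for each of the 169 solute carrier genes, in rows by substrate class. Coloured points are the 22 genes whose 3 arrays per group do not overlap, black bars are class medians, and the class medians lie between −0.09 and 0.07.

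Among sugar transporters, 19 of 48 genes were measured, of which 6 were higher and 13 lower in LNA-205, and the median log2 difference was −0.04. The facilitative hexose carriers of the SLC2 family had lower values in 5 of 5 measured cases, against 50.2% of all features. The family had 15 genes with a probe. None of the 5 passed the test. Among the other small families, SLC6 and SLC7 were also lower in 4 of 4 measured genes each. SLC2A1, the main glucose carrier of proliferating cells, read 11.65, 11.94 and 11.77 in LNA-Scr and 11.71, 11.87 and 11.73 in LNA-205. Its groups overlapped, and the difference of −0.01 had a 95% interval from −0.28 to 0.25. SLC2A3, a high-affinity glucose carrier, read 9.02, 9.31 and 9.84 in LNA-Scr and 9.209, 8.9997 and 9.116 in LNA-205. LNA-Scr replicate C stood above the other 5 arrays, and the difference of −0.28 (SE 0.20) was −0.05 without it. SLC2A6, a hexose carrier of lysosomes, read 10.63, 10.55 and 10.58 in LNA-Scr and 10.37, 10.42 and 10.39 in LNA-205. All 3 LNA-205 arrays were below all LNA-Scr arrays, with a difference of −0.19 (SE 0.09, adjusted p = 0.793). SLC2A9, the urate carrier of this family, differed by −0.16 (SE 0.15) and SLC2A8 by −0.01 (SE 0.12). With replicate B of LNA-Scr or replicate D of LNA-205 left out, the SLC2A1 and SLC2A8 differences were above 0, so the run of 5 lower values depended on single arrays.

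Sugar carriers of the Golgi and endoplasmic reticulum belong to the SLC35 and SLC37 families. SLC35A1, which brings CMP-sialic acid into the Golgi, read 9.60, 9.74 and 9.65 in LNA-Scr and 10.037, 10.003 and 9.881 in LNA-205. The groups did not overlap, and the difference was 0.31 (SE 0.10, 95% interval 0.08 to 0.54, limma adjusted p = 0.691). SLC35B4, a carrier of UDP-xylose and UDP-N-acetylglucosamine, read 7.97, 8.19 and 8.36 in LNA-Scr and 7.61, 7.97 and 7.89 in LNA-205. Its groups overlapped at 7.97, 1 of the 6 arrays fell short of the detection limit, and the difference was −0.35 (SE 0.14, adjusted p = 0.790). SLC37A4, the glucose-6-phosphate carrier of the endoplasmic reticulum, read 10.85, 10.77 and 10.89 in LNA-Scr and 11.01, 11.00 and 11.01 in LNA-205. This was a separation of 0.17 (SE 0.10, adjusted p = 0.814) with little spread. SLC45A3, known as prostein for its abundance in prostate, differed by −0.10 (SE 0.13), with overlapping groups.

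Amino acid and peptide transporters had lower values in LNA-205 in 15 of 20 measured genes (75.0%, against 50.2% of all features), with a median log2 difference of −0.06. Of 57 such genes with a probe, 20 were measured, and 0 passed the test. The count rested in part on 1 array. It was 11 of 20 without LNA-Scr replicate B, whose amino acid transporters had a median 0.14 above their 6-array means, the highest of the 6 arrays. The median difference was then −0.01. All 4 measured SLC7 genes and 5 of 7 measured SLC38 genes were on the lower side. Of these, SLC7A1, SLC7A5 and SLC38A1 lay close to 0 and were above it when certain single arrays were left out. For SLC7A1 these were LNA-Scr replicate B, LNA-Scr replicate C or LNA-205 replicate E. For SLC38A1 it was LNA-Scr replicate B, and for SLC7A5 LNA-205 replicate D.

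SLC7A6 had the smallest p of any solute carrier gene. It encodes a light chain that pairs with SLC3A2 and exports cationic amino acids in exchange for neutral ones. Its values were 9.80, 9.75 and 9.93 in LNA-Scr and 9.41, 9.35 and 9.33 in LNA-205. The groups were clearly apart, with a difference of −0.46 (SE 0.10, 95% interval −0.69 to −0.23), a 1.38-fold lower level. The limma adjusted p was 0.550. A second probe of the gene read 9.45, 9.19 and 9.64 in LNA-Scr and 8.89, 9.29 and 8.85 in LNA-205. This probe had the same direction, −0.41 (SE 0.17, adjusted p = 0.792 with every probe as its own feature), with 1 LNA-205 array inside the LNA-Scr range. With any 1 array left out, the difference of the brighter probe stayed between −0.50 and −0.41.

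SLC43A2, a facilitative carrier of branched-chain amino acids and phenylalanine, had the lowest difference of the superfamily. Its values were 8.61, 9.42 and 9.36 in LNA-Scr and 8.05, 8.37 and 8.65 in LNA-205. LNA-Scr replicate A overlapped with LNA-205 replicate F, and the difference of −0.78 (SE 0.24, 95% interval −1.33 to −0.23) had an adjusted p of 0.691. SLC38A9, the lysosomal arginine sensor of the mTORC1 pathway, read 9.81, 9.66 and 10.32 in LNA-Scr and 9.56, 9.54 and 9.54 in LNA-205. LNA-Scr replicate C stood high, and the difference of −0.38 (SE 0.17) was −0.19 without it. SLC6A15, a carrier of proline and branched-chain amino acids, differed by −0.24 (SE 0.11) without overlap, but its other 2 detected probes gave −0.04 and 0.05. SLC38A5, a glutamine carrier, differed by −0.41 (SE 0.21) and SLC6A9, a glycine carrier detected on 3 of 6 arrays, by −0.30 (SE 0.22).

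For the pair SLC7A5 and SLC3A2 no difference was measurable. SLC7A5, the light chain that carries leucine and other large neutral amino acids, read 15.18, 15.26 and 15.26 in LNA-Scr and 15.09, 15.21 and 15.30 in LNA-205. Its difference was −0.03 (95% interval −0.27 to 0.21). SLC3A2, its heavy subunit, read 13.20, 13.33 and 13.10 in LNA-Scr and 13.20, 13.22 and 13.31 in LNA-205. Its difference was 0.03 (95% interval −0.21 to 0.28), and a second probe gave 0.06. SLC1A5, the glutamine exchanger, differed by 0.10 (SE 0.10). SLC7A1, for arginine and lysine, differed by −0.01 (95% interval −0.23 to 0.22), SLC7A8 by −0.09 (SE 0.11) and SLC38A2, the stress-responsive glutamine and alanine carrier, by 0.02 (95% interval −0.21 to 0.24). Within this class, SLC36A4 (0.28, SE 0.23) and SLC38A6 (0.15, SE 0.12) were the genes with the smallest p on the higher side. SLC7A11, the cystine-glutamate exchanger, and SLC43A1, first described in prostate cancer, were detected on 0 arrays.

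**Figure D2:**
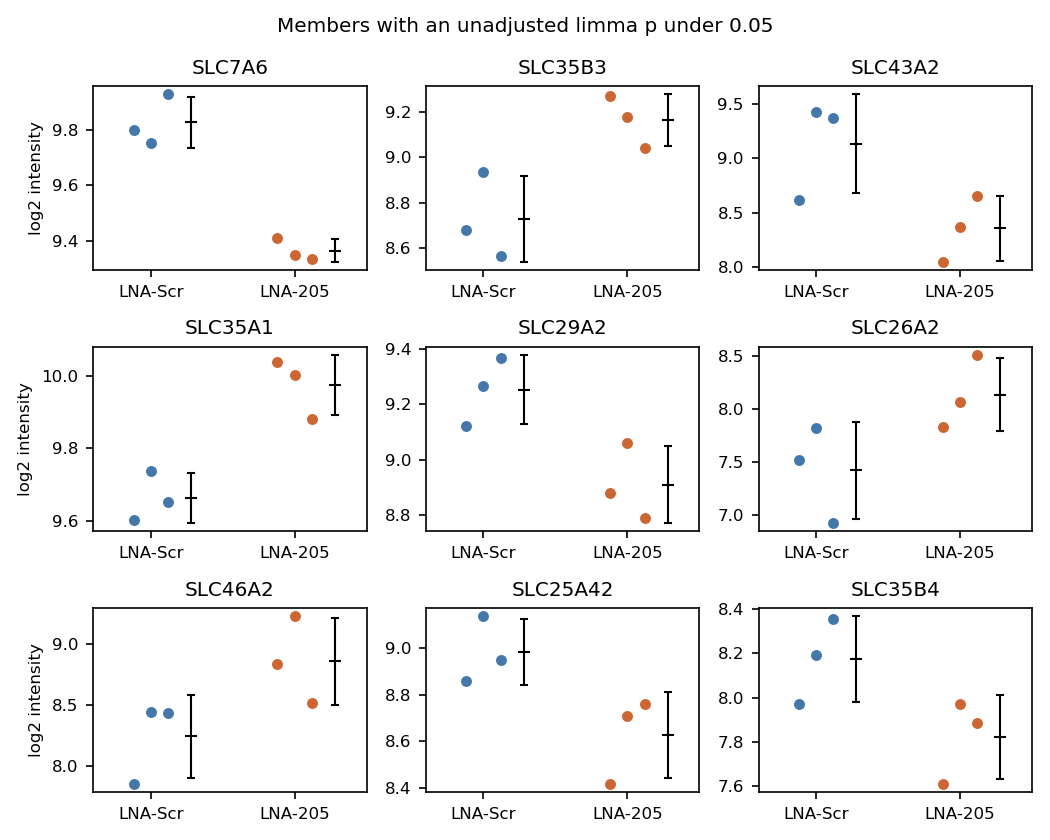
Normalized log2 intensity (y axis) on each array for the 9 solute carrier genes with an unadjusted limma p under 0.05, in order of p. Points are arrays, replicates A to C for LNA-Scr and D to F for LNA-205 from left to right, and the black marks give the mean ± SD (n = 3). SLC43A2 and SLC35B4 are the panels whose groups overlap.

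Ion transporters had as many higher as lower values, 9 and 9 of 18 measured genes, of 55 with a probe. The median log2 difference was 0.01. The largest difference of the superfamily on the higher side was that of SLC26A2, which brings sulfate into cells for the sulfation of proteoglycans. Its values were 7.52, 7.82 and 6.92 in LNA-Scr and 7.83, 8.06 and 8.50 in LNA-205. The groups were separated by a hair, 7.82 against 7.83, and 5 of the 6 arrays detected the probe. The array that did not was LNA-Scr replicate C, at 6.92. The difference was 0.71 (SE 0.25, 95% interval 0.14 to 1.28), with a limma adjusted p of 0.733. With any 1 array left out it stayed between 0.46 and 0.91. SLC26A6, an exchanger of chloride, bicarbonate and oxalate, read 9.54, 9.68 and 9.66 in LNA-Scr and 9.89, 10.05 and 9.71 in LNA-205. It differed by 0.26 (SE 0.12, adjusted p = 0.793), also without overlap. On the lower side stood SLC9A8, a sodium-proton exchanger of the Golgi (−0.22, SE 0.15), and SLC4A11 of the bicarbonate family (−0.20, SE 0.18), both with overlapping groups. SLC20A1, a phosphate carrier, differed by 0.04 (95% interval −0.23 to 0.31), and SLC12A2, the sodium-potassium-chloride cotransporter, by 0.07 (SE 0.14).

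PAPS, the activated sulfate that the Golgi uses, has its own carriers, classed here with other substrates. Sulfate handling was not a planned class, and a link with SLC26A2 was not tested. SLC35B3, a Golgi carrier of PAPS, read 8.68, 8.93 and 8.57 in LNA-Scr and 9.27, 9.18 and 9.04 in LNA-205. The groups did not overlap, and the difference was 0.44 (SE 0.13, 95% interval 0.14 to 0.73), with a limma adjusted p of 0.691. SLC35B2, the other PAPS carrier, read 12.21, 11.97 and 12.11 in LNA-Scr and 12.30, 12.17 and 12.17 in LNA-205. Its difference was 0.11 (SE 0.11), with overlapping groups.

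Zinc and other metal transporters were measured for 20 of 32 genes, of which 14 were higher and 6 lower in LNA-205 (30.0% lower, against 50.2% of all features), and 0 passed the test. The median log2 difference was 0.07. Of the SLC39 importers, 9 of 10 measured genes were higher by their brightest probe, with a median of 0.07, and of the SLC30 exporters 3 of 5, with a median of 0.07. The class count was 10 of 20 without LNA-Scr replicate C and 10 of 20 without LNA-205 replicate D. Medians in those cases were 0.0028 and 0.00090. With each of the 28 kept probes counted, 17 were higher. When a gene's probes were averaged it was 11 of 20, with a median of 0.01. When arrays were scaled to a common median, 4 of the 20 genes were higher, and 14 lay above the median of all features.

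**Figure D3:**
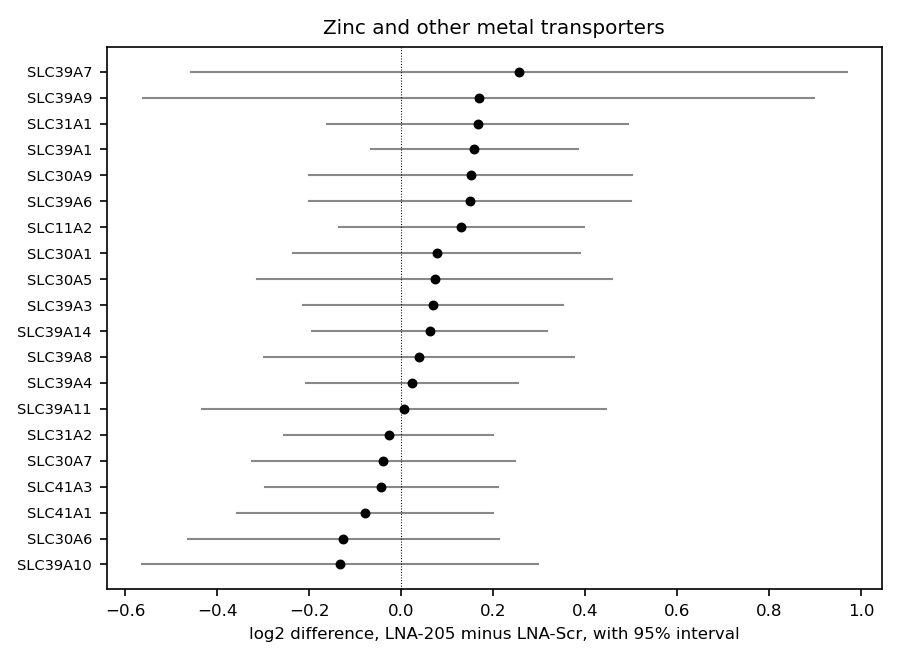
Log2 difference between LNA-205 and LNA-Scr (x axis) for the 20 measured zinc and other metal transporters, with the 95% interval from limma as a line. Every interval crosses 0, and 14 of the 20 points lie to its right.

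SLC39A1 is the zinc importer held to be the main one of prostate epithelium. It read 11.90, 11.92 and 11.90 in LNA-Scr and 12.08, 11.98 and 12.14 in LNA-205. All LNA-205 arrays were above all LNA-Scr arrays, by 0.16 (SE 0.10, 95% interval −0.07 to 0.38, limma adjusted p = 0.828). When arrays were scaled to a common median the difference was −0.02, while the median of all features was itself −0.16. SLC39A6, a zinc importer linked with oestrogen-responsive cells, read 9.09, 9.41 and 8.86 in LNA-Scr and 9.15, 9.37 and 9.28 in LNA-205, a difference of 0.15 (SE 0.15). A second probe of the same gene gave −0.18. SLC39A3 was 0.07 by its brightest probe, while its other 2 probes gave −0.21 and −0.19, each without overlap. SLC39A7 (0.26, SE 0.31, detected on 3 of 6 arrays) and SLC39A9 (0.17, SE 0.32) carried the widest intervals, and SLC39A14, an importer of zinc and iron, differed by 0.06 (SE 0.11). On the lower side were SLC39A10 (−0.13, SE 0.19) and SLC30A6 (−0.13, SE 0.15). SLC31A1, the copper importer, differed by 0.17 (SE 0.14). SLC30A4, a zinc carrier of vesicles, was detected on 0 arrays.

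SLC30A1, which exports zinc at the plasma membrane and is induced by zinc through the factor MTF1, read 9.07, 9.43 and 8.99 in LNA-Scr and 9.26, 9.30 and 9.15 in LNA-205. The groups overlapped, with a difference of 0.08 (95% interval −0.23 to 0.39) and 0.03 by a second probe. Metallothioneins, small zinc-binding proteins, are induced by the same factor. MT1X read 14.80, 14.58 and 14.93 in LNA-Scr and 15.02, 15.12 and 15.01 in LNA-205. This was higher by 0.28 without overlap (SE 0.12, limma adjusted p = 0.790), whereas MT1E by −0.06 (SE 0.11), MT1F by −0.06 (SE 0.12) and MT1G by 0.02 (SE 0.10). MT2A read between 88.9% and 97.9% of each array's brightest intensity and may be saturated, so no difference is given for it. Metallothionein genes are near-identical copies, so a probe may read more than its own gene, which was not tested. MTF1 itself differed by −0.13 (SE 0.15). The 250 bases before the start of SLC30A1 and of MT1X are shown because both genes respond to zinc and were read side by side here. Sequences are from RefSeq on GRCh38.p14, SLC30A1 at chr1:211579162-211579411 on the − strand and MT1X at chr16:56682220-56682469 on the + strand. Capitals mark matches to the core of the metal response element, searched as TGCACNC and TGCGCNC on both strands.
SLC30A1: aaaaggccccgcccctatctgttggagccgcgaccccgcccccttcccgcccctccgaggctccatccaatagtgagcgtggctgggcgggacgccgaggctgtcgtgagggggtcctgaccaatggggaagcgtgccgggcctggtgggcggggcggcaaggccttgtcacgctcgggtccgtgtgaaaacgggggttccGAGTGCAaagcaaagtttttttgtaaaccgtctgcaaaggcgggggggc
MT1X: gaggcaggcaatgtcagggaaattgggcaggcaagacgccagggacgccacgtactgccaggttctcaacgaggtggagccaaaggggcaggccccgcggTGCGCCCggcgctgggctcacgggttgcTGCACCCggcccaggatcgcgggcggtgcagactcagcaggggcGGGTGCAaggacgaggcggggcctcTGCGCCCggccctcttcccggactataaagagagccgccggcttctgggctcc
SLC30A1 held 1 match and MT1X held 4. Of 35116 promoter windows of the same length, 24.8% held at least 1 match and 1.58% held 3 or more. Among the 17 measured metal transporter genes with a window, 4 held a match (23.5%), and among 143 measured solute carrier genes with a window, 45 did (31.5%). A match is a run of letters and not a shown binding site.

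Mitochondrial carriers of the SLC25 family were measured for 31 of 45 genes, 12 with higher and 19 with lower values (61.3% lower), and the median log2 difference was −0.03. None passed the test. SLC25A42, which exchanges coenzyme A for adenine nucleotides, read 8.86, 9.13 and 8.95 in LNA-Scr and 8.42, 8.71 and 8.76 in LNA-205. The groups did not overlap, and the difference was −0.35 (SE 0.13, 95% interval −0.65 to −0.05, limma adjusted p = 0.758). SLC25A1, which exports citrate for fatty acid and sterol synthesis, read 11.50, 11.31 and 11.28 in LNA-Scr and 11.11, 11.01 and 11.28 in LNA-205. It differed by −0.23 (SE 0.12), and LNA-205 replicate F lay at the edge of the LNA-Scr range. SLC25A37, a mitochondrial iron importer, differed by −0.21 (SE 0.11) without overlap. SLC25A11, the oxoglutarate-malate carrier, read 9.27, 9.45 and 9.14 in LNA-Scr and 9.45, 9.52 and 9.51 in LNA-205, a narrow separation of 0.21 (SE 0.11). SLC25A29, a carrier of basic amino acids, read 7.83, 8.24 and 8.21 in LNA-Scr and 8.27, 8.28 and 9.12 in LNA-205. LNA-205 replicate F stood apart, the difference of 0.46 (SE 0.24) was 0.18 without it, and a second probe gave −0.08.

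SLC25A5, an exchanger of ADP and ATP, read 15.35, 15.36 and 15.22 in LNA-Scr and 15.25, 15.46 and 15.28 in LNA-205. The difference was 0.02 (95% interval −0.23 to 0.27). SLC25A4, its muscle-type relative, differed by −0.09 (SE 0.11) and SLC25A3, the phosphate carrier, by 0.07 (95% interval −0.16 to 0.30). SLC25A44, which imports branched-chain amino acids upstream of the leucine pathway in which MCCC2 acts, read 11.10, 11.20 and 10.93 in LNA-Scr and 10.92, 10.95 and 11.04 in LNA-205. Its groups overlapped, with a difference of −0.11 (95% interval −0.36 to 0.14), whereas MCCC2 differed by −1.72.

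Carriers of other substrates numbered 54 measured genes of 133, 24 higher and 30 lower, with a median of −0.03. SLC46A2, a relative of the proton-coupled folate transporter, read 7.85, 8.44 and 8.43 in LNA-Scr and 8.83, 9.23 and 8.51 in LNA-205. The groups did not overlap, and the difference was 0.62 (SE 0.22, 95% interval 0.11 to 1.12, limma adjusted p = 0.737). SLC29A2, an equilibrative nucleoside transporter, read 9.12, 9.27 and 9.37 in LNA-Scr and 8.88, 9.06 and 8.79 in LNA-205. Its difference was −0.34 without overlap (SE 0.12, limma adjusted p = 0.733). SLC22A17, a receptor for lipocalin-2 complexes, differed by −0.25 (SE 0.12) without overlap and was detected on 5 of 6 arrays. The smaller separations without overlap were SLC18B1, a vesicular polyamine carrier, at −0.15 (SE 0.10), SLC35B1, which brings ATP into the endoplasmic reticulum, at −0.12 (SE 0.10), SLC22A4, a carrier of ergothioneine, at 0.11 (SE 0.10) and SLC35F2 at 0.24 (SE 0.11). Second probes of SLC22A4 and SLC35F2 gave −0.13 and −0.08. SLC5A6, for biotin and pantothenate, differed by −0.06 (SE 0.11), and SLC6A8, the creatine carrier, by −0.13 (SE 0.17). No probe carried the lactate carrier SLC16A1 as its only symbol.

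A further 7 members carry an SLC symbol without being transporters, such as pseudogenes, antisense transcripts and partner proteins, and 0 of them passed. SLC7A5P2, a pseudogene of SLC7A5, read between 94.8% and 99.7% of each array's brightest unnormalized intensity. So near the top of the scale its probe may be saturated, which the files do not flag, and its small difference, counted above among the 12 without overlap on the higher side, is not read further. SLC6A10P, a pseudogene of SLC6A8, differed by −0.19 (SE 0.12). Its second probe read 7.51, 8.09 and 8.39 in LNA-Scr, detected on all 3 arrays, and 7.41, 7.39 and 7.36 in LNA-205, detected on 0 arrays. The probe was kept through its LNA-Scr arrays alone, so the detection rule itself favours a lower LNA-205 value, and no fold or test is given for it. Among the 212 kept probes this was the only one detected on all arrays of 1 group and none of the other. Both pseudogenes resemble their parent genes, so their probes may read both.

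Probes of the same gene often differed in sign. Whether they differed by more than their measurement spread was not tested. Of 37 members read by several kept probes, 20 had all probes on the same side of 0 and 17 had probes on both sides. The range between a gene's probes had a median of 0.14 and reached 0.57, while the median absolute log2 difference over all members was 0.09 and the median SE 0.13. SLC25A43, an orphan mitochondrial carrier, differed by −0.01 with its brightest probe and by −0.59 with the other. The other probe lay near the detection limit, detected on 2 of 3 LNA-205 arrays. SLC38A1, a glutamine carrier, read 12.77, 13.05 and 12.80 in LNA-Scr and 12.82, 12.89 and 12.74 in LNA-205 by its brightest probe, with overlap. Its second probe read 9.585, 9.295 and 9.0009 in LNA-Scr and 8.64, 8.92 and 8.62 in LNA-205, a difference of −0.57 without overlap (SE 0.17, limma adjusted p = 0.743 with every probe as its own feature). SLC25A25, an ATP-magnesium and phosphate carrier, differed by 0.04 and 0.31.

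**Figure D4:**
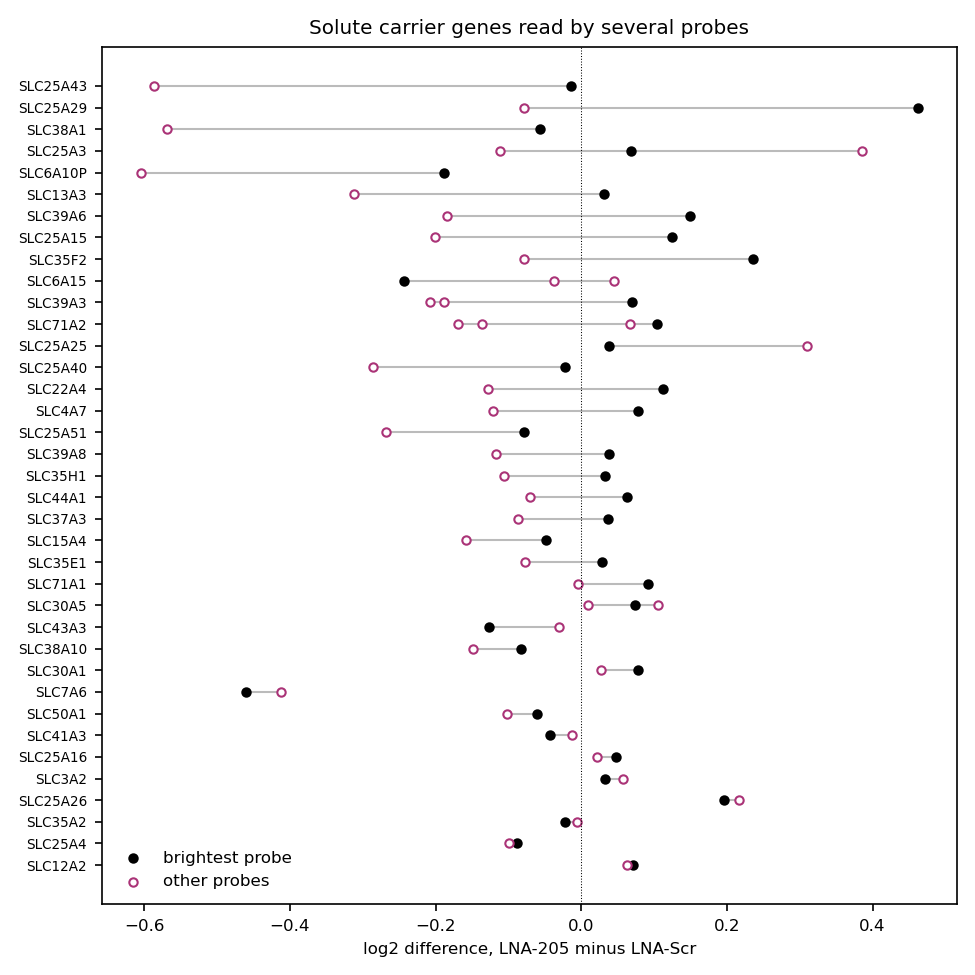
Log2 difference between LNA-205 and LNA-Scr (x axis) for each kept probe of the 37 solute carrier genes with several probes, ordered by the range between probes. Filled points are the brightest probe of a gene and open points its other probes. SLC7A6 is the gene with both probes below −0.4.

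Single arrays also shifted whole classes. The median shift of all solute carrier genes from their 6-array means was −0.02 to 0.03 over the LNA-Scr arrays and −0.02 to −0.01 over the LNA-205 arrays. Over all features it stayed between −0.0022 and 0.0065. For amino acid transporters it ran from −0.04 to 0.14 in LNA-Scr and from −0.07 to −0.0027 in LNA-205, for zinc and metal transporters from −0.07 to 0.04 and from −0.04 to 0.05. The array shifts of the 2 groups overlapped in each of the 6 substrate classes.

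**Figure D5:**
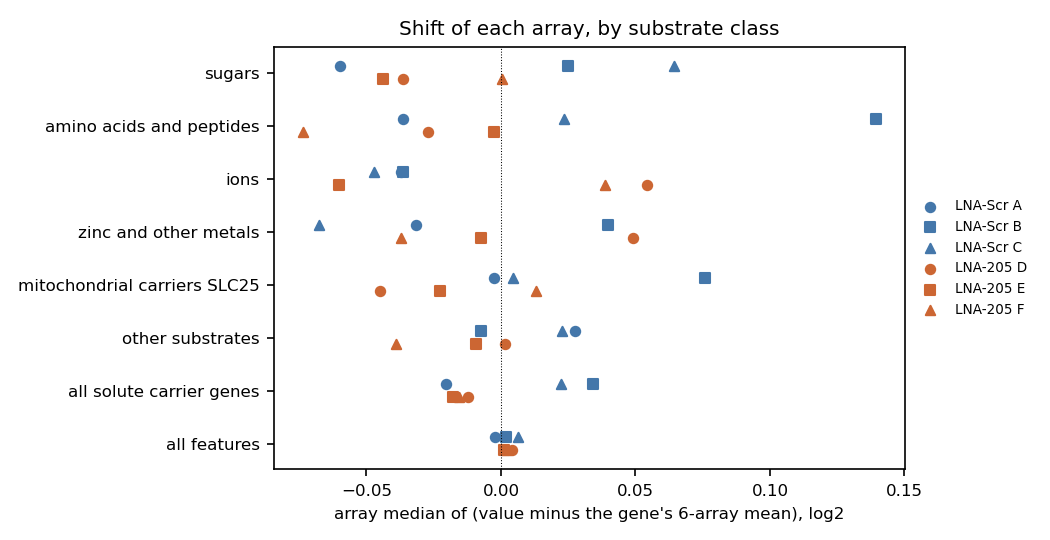
Median over the genes of a class of the value minus the gene's own 6-array mean (x axis, log2), 1 point per array, with colour for the group and shape for the replicate. LNA-Scr and LNA-205 points interleave in every class, and LNA-Scr replicate B stands highest for amino acid transporters at 0.14.

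Proteins that work with solute carriers were read from a separate list of 42 genes, of which 31 were measured. Of these, 20 were higher and 11 lower (35.5% lower, against 50.2% of all features). MT2A, which may be saturated, is counted among the 11. The median log2 difference was 0.02, and 0 passed the test. BSG (basigin), the chaperone that brings lactate carriers to the cell surface, read 13.31, 13.18 and 13.18 in LNA-Scr and 12.87, 12.94 and 13.07 in LNA-205. It was lower without overlap, by −0.26 (SE 0.11, limma adjusted p = 0.780). VDAC3, a porin of the outer mitochondrial membrane, differed by 0.20 (SE 0.10) without overlap, and its relative VDAC2 by −0.24 (SE 0.17). The sodium pump subunit ATP1B1, whose enzyme sets the gradient that sodium-coupled carriers use, differed by −0.02 (SE 0.10), and the pyruvate carrier subunits MPC1 and MPC2 by 0.07 and 0.08 (SE 0.10 each).

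At the detection limit the values of members were low in both groups. Just inside it stood 10 probes detected on 3 of 6 arrays, the highest of them SLC39A7, SLC9A4 and a second SLC25A40 probe, for which the third smallest detection p was 0.00922. Just outside it stood 3 probes detected on 2 arrays, SLC35A2 and SLC46A3, for which it was 0.0105, and SLC7A2, for which it was 0.0145. The SLC7A2 probe averaged 7.33 in LNA-Scr and 6.93 in LNA-205, and the SLC39A7 probe 7.09 and 7.35.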

How the data were processed

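Expression was measured with Illumina bead arrays in 3 LNA-Scr and 3 LNA-205 cultures. Per the labels' protocols, RNA was extracted with Trizol, cleaned on RNeasy columns with DNase and labelled with the TotalPrep kit. The authors' unnormalized file was deposited as log2 intensities, since 2 to the power of each lies within 0.000248 of a number with 1 decimal. The detection p-values are 1 column per array, per the file headers. The authors' processed log2 values served as an alternative. How they were normalized is not stated in the labels or headers. The submitters' processing notes name lumi.

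No value was given for 4 of the 48803 probes. The values were background corrected, quantile normalized and logged with limma's neqc (offset 16). Probes detected (p under 0.01) on at least 3 of 6 arrays were kept (13423). Symbols came from a platform annotation, and 0 changed on update to RefSeq GRCh38.p14. Probes with no symbol or with several were treated as unnamed. Per gene, the probe with the highest mean was used, and each unnamed probe stood alone, giving 10803 features. limma 3.58.1 in R 4.3.3 (lmFit and eBayes, two-sided) was fitted over all of them, with Benjamini-Hochberg adjustment at 0.05, and was tested on simulated data.

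Genes to name were the 2 smallest p per substrate class and direction, members with an unadjusted p under 0.01, members detected in 1 group only, 17 standard transporters, and the partners with the 2 smallest p per direction. SLC38A9, SLC6A15, SLC38A1 and other members and partners outside this rule were named after their values were seen. Members, classes and lists were chosen with earlier results of these data known. Substrate classes follow textbook knowledge, and some symbols, mainly recently renamed genes and non-transporters, were classed after the array's symbols, but not their values, had been seen. The number of arrays limits the precision.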

Additional observations from a re-analysis of the deposited data

How the results depend on the processing

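No paired analysis was possible because the groups share no replicate letters. No solute carrier gene or partner passed limma's adjusted p of 0.05 under any of the 15 alternatives, and the smallest adjusted p of a solute carrier gene ran from 0.374 with median scaling to 0.926 without a detection filter. Matching members by updated symbol changed nothing.

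Scaling to a common median, taken over all probes and not only the kept ones, moved the median of all features to −0.16. The medians were then −0.19 for the members, −0.24 for amino acids, −0.16 for ions, −0.19 for SLC25, −0.18 for other substrates, −0.19 for sugars, −0.10 for metals and −0.14 for partners. Counts at an unadjusted p under 0.05 became 2 higher and 15 lower of 169 members, and 0 partners were higher. Shares of all features at that p are not given for this or the other alternatives. These counts are therefore not read as results about the members. Differences of named genes changed sign for SLC12A2 (−0.081), SLC1A5 (−0.064), SLC20A1 (−0.15), SLC22A4 (−0.031), SLC25A25 (−0.12), SLC25A3 (−0.14), SLC25A5 (−0.17), SLC30A1 (−0.060), SLC35B2 (−0.070), SLC38A2 (−0.15), SLC39A14 (−0.098), SLC39A1 (−0.018), SLC39A3 (−0.097), SLC3A2 (−0.16) and SLC7A5P2 (−0.14). With a gene's probes averaged, SLC22A4 was −0.0082, SLC39A3 −0.11 and SLC39A6 −0.018, and the metal median was 0.015. Without a detection filter, 9 of 377 genes were higher and 13 lower at an unadjusted p under 0.05, and 0 partners in either direction. With every probe as its own feature 9 of 212 probes were lower. With an intensity trend 2 partners were higher.

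With 1 array left out, unadjusted counts ran from 2 to 6 higher of the 169 members. On the lower side they ran from 3 (without LNA-205 replicate D) to 11 (without LNA-Scr replicate A). Partner counts ran from 0 to 3 higher and from 0 to 1 lower. Shares of all features are not given beside these counts either. Medians ran from −0.031 to −0.0088 for the members, −0.11 to −0.010 for amino acids, −0.040 to 0.030 for ions, −0.047 to −0.0048 for SLC25, −0.023 to 0.0040 for other substrates, −0.076 to −0.024 for sugars, 0.00090 to 0.065 for metals and 0.018 to 0.068 for partners. Named genes changed sign in SLC12A2 (−0.066 to 0.16), SLC20A1 (−0.031 to 0.13), SLC25A25 (−0.024 to 0.10), SLC25A43 (−0.12 to 0.056), SLC25A5 (−0.045 to 0.062), SLC2A1 (−0.082 to 0.062), SLC2A8 (−0.12 to 0.082), SLC30A1 (−0.0087 to 0.21), SLC38A1 (−0.11 to 0.031), SLC38A2 (−0.0054 to 0.058), SLC39A10 (−0.32 to 0.027), SLC39A7 (−0.13 to 0.55), SLC39A9 (−0.20 to 0.37), SLC3A2 (−0.021 to 0.094), SLC45A3 (−0.18 to 0.0022), SLC6A8 (−0.32 to 0.035), SLC7A1 (−0.040 to 0.022) and SLC7A5 (−0.083 to 0.025). Of 68 genes followed through the alternatives, 41 kept their direction in each alternative that gave a value, which was 14 alternatives for 61 genes and 13 for 7. The metallothioneins other than MT1X, MTF1, ATP1B1, MPC1 and MPC2 were not among them. The causes were not tested. With 3 arrays per group the median SE of a member's difference was 0.13, which sets the size of difference that could be seen.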
